A study of Mus musculus with 24 samples.

Results

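The genes described here are 9 components of the brain's hyaluronan-based extracellular matrix, chosen by name from the 15232 genes of the table. They comprise the 4 lecticans Acan, Bcan, Ncan and Vcan, the tenascins Tnr and Tnc, the link proteins Hapln1 and Hapln4, and the hyaluronan synthase Has3. In perineuronal nets, which wrap the cell bodies of many parvalbumin interneurons, a synthase at the membrane spins out hyaluronan, lecticans bind it through their globular heads, link proteins lock that contact, and trimeric tenascin-R ties the lecticans together at their other end. The same molecules also make up the looser matrix between cells, which is supplied by astrocytes, oligodendrocyte precursors and neurons. In cortex, nets are known for appearing at the end of postnatal critical periods and for limiting later synaptic rearrangement.

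Poly(A) RNA of the whole anterior cingulate cortex (ACC), a frontal area involved in weighing effort, was sequenced from 24 mice, 1 library per animal. There were 3 arms of 8 animals with 4 females and 4 males each: untrained animals labelled Wild-type (WT), untrained animals labelled Thbs1/2 KO and trained animals labelled Thbs1/2 KO. The targeted pair are thrombospondins, which astrocytes secrete into the matrix, and the study asked what part they play in goal-directed action. Training was in an operant (skinner) box with food deprivation, and the effects of these on a library cannot be told apart. Strain, age and the nature of the KO alleles are not given in the sources used here, nor was a trained WT arm analysed here.

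Both targeted genes were higher in the libraries labelled KO. Thbs1 was at 0.254 to 0.716 FPKM (fragments per kilobase, corrected for library size) in the libraries labelled WT and at 2.77 to 5.04 FPKM in the untrained libraries labelled KO. Thbs2 went the same way (2.02 ± 0.294 against 3.51 ± 0.378 FPKM, SD, n = 8 each). The FPKM of a gene do not tell whether the counted transcript is functional, and the cause was not tested. Directions between genotypes below therefore rest on the labels alone. Recovered depth was 12227443 to 26971522 reads per library. In the untrained library of labelled KO male 3, which was the deepest, 10 cortical excitatory neuron markers summed to 336 FPKM against 979 to 1150 FPKM in the other 7 libraries of its arm, and 6 septal markers summed to 105 FPKM against 7.46 to 10.4 FPKM. The cortical sum was 935 to 1184 FPKM in all libraries but that one, and Slc17a7, the cortical vesicular glutamate transporter, was at 502 ± 51.9 FPKM (SD, n = 8) in the arm labelled WT. Markers of striatal neurons, 10 genes, were raised in 6 libraries: they summed to 705 FPKM in the same male 3 and to 277 to 397 FPKM in 5 others (3 labelled WT, 1 untrained and 1 trained labelled KO), against 90.6 to 182 FPKM in the other 18. For the 9 genes, calls or signs that changed without these 6 libraries are given beside their values or in the section on processing. That setting was added after seeing the data, and single genes of the marker and matrix lists are not given under it. Animal numbers overlapped with training: every one of the 8 trained animals was numbered over 1000, against 2 untrained animals labelled KO and 1 labelled WT, all males.

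The 9 genes differed widely in level, and the net's best-known marker was among the rarest. Brevican (Bcan) led with 52.6 ± 6.24 FPKM (SD, n = 24), followed by neurocan (Ncan) at 42.1 ± 3.33, Hapln4 at 39.0 ± 7.63 and Tnr at 23.2 ± 3.60 FPKM. Then came Hapln1 at 5.05 ± 0.838 FPKM and versican (Vcan) at 2.29 FPKM, with a range of 1.47 to 2.89. Aggrecan (Acan), the lectican most used to define nets, was at 0.752 ± 0.235 FPKM, resting on 48 to 213 reads per library. Tnc and Has3 were lowest, at 0.420 ± 0.0864 and 0.413 ± 0.123 FPKM, with 27 to 98 and 19 to 85 reads. Some neighbours in this order were not separated by their spread: Ncan exceeded Hapln4 in 16 of 24 libraries and Tnc exceeded Has3 in 12 of 24, while Tnr exceeded Hapln1 and Hapln1 exceeded Vcan in all 24, with ranges that did not overlap.

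By these levels the lectican transcripts were almost all brevican and neurocan. Bcan made up 53.7 ± 3.40% (SD, n = 24) of the summed lectican FPKM and Ncan 43.2 ± 3.35%, whereas Vcan made up 2.35 ± 0.391% and Acan 0.775 ± 0.264%. The share of Acan was 0.625 ± 0.127% in the arm labelled WT, 0.748 ± 0.149% in the untrained and 0.952 ± 0.359% in the trained libraries labelled KO (n = 8 each), with overlapping ranges. Of the link proteins, Hapln4, which is known for holding brevican in nets, was at 7.95 ± 2.25 times the level of Hapln1 (mean ratio, SD, n = 24) and above it in every library, by 4.96 to 14.6 times. In bulk tissue, fewer cells of a type and less RNA per cell cannot be told apart.

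The genes also differed in how much they varied. Ncan had the lowest coefficient of variation over the 24 libraries, 7.90%, against 1.40% for read counting alone, followed by Bcan at 11.9%. Acan and Has3 varied most, by 31.3% and 29.8%, of which counting alone would give 10.3% and 15.4%. For Hapln4 the coefficient was 19.6% and came to 16.0% without the untrained labelled KO male 3, and for Tnr it was 15.5% and came to 10.9% without the trained labelled KO male 3. That trained library also had the lowest Vcan, Tnc and Hapln1 of its arm (1.47, 0.321 and 3.72 FPKM) and the highest Bcan (54.7 FPKM). Its Acan, Ncan, Hapln4 and Has3 lay within the range of the other trained libraries.

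**Figure D1:**
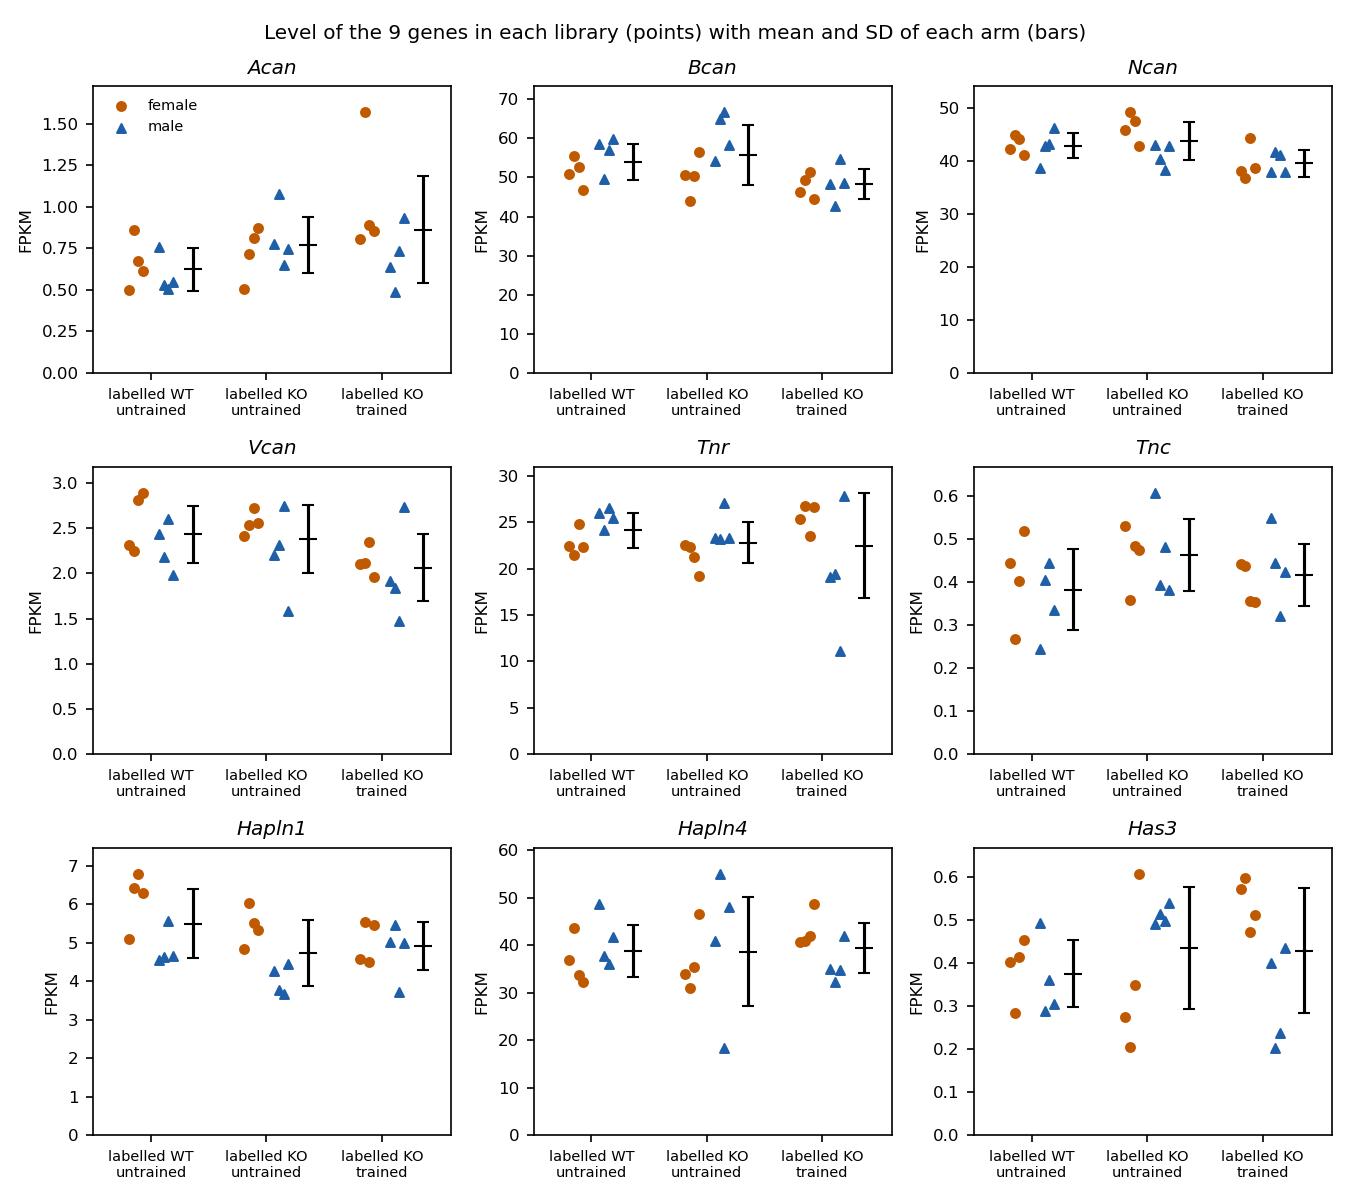
FPKM of each gene in each of the 24 libraries by arm (circles, females; triangles, males), with the mean and SD of the 8 libraries of the arm as bars; each panel has its own axis from 0. The arms overlapped for all 9 genes, Hapln4 was at 18.3 FPKM in 1 untrained labelled KO male, and Tnr was at 11.1 FPKM in 1 trained male.

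Each link protein gene lies beside a lectican gene in the mouse genome (GRCm38, the assembly also called mm10). Hapln1 (chr13:89540529-89611832) and Vcan (chr13:89655309-89743027) are 43.5 kb apart. Hapln4 (chr8:70083529-70090862) and Ncan (chr8:70093085-70120863) are 2.22 kb apart, and Hapln2 with Bcan (chr3:87987531-88002175) and Hapln3 with Acan (chr7:79053226-79115099) form the other two pairs. After the means of arm and sex were taken out, the log2 levels of Hapln1 and Vcan had a Pearson r of 0.16 over 24 libraries, those of Hapln4 and Ncan 0.03, those of Hapln2 and Bcan 0.37 and those of Hapln3 and Acan 0.08. Without the untrained labelled KO male 3 the values were 0.27, -0.43, 0.60 and 0.20, so the values of Hapln4 with Ncan and of Hapln2 with Bcan moved most with that library. Within the 9 genes, the r farthest from 0 were those of Ncan with Has3 (-0.73, Spearman rho -0.74) and Vcan with Tnr (0.66), all points sharing library depth and composition. For Vcan with Tnr the rho was 0.34, and r was 0.58 and rho 0.45 without the trained labelled KO male 3. The remaining genes are Tnr (chr1:159523729-159931729), Tnc (chr4:63959785-64047015) and Has3 (chr8:106870242-106882902), so none lies on chromosome 2 or 17, which carry Thbs1 and Thbs2.

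Base composition matters below, where Hapln1 and Bcan are compared between the sexes, and their transcripts lie near the ends of the range of these genes. The first 150 coding bases of each are shown for that reason, from the annotated exons 2 and 3 (GENCODE M21, GRCm38), with every G and C in capitals. The Hapln1 stretch (chr13:89584722-89601487, plus strand, spliced) holds 49.3% G and C, and the Bcan stretch (chr3:87997298-87997835, minus strand, spliced) holds 66.0%. Over whole transcripts the values were 39.8% for Hapln1, whose coding part is at 51.2%, and 60.7% for Bcan, whose coding part is at 60.9%.
Hapln1: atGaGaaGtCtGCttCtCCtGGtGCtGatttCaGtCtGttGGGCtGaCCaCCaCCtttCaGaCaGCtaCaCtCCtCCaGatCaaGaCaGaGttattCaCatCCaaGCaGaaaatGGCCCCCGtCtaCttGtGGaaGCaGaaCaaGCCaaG
Bcan: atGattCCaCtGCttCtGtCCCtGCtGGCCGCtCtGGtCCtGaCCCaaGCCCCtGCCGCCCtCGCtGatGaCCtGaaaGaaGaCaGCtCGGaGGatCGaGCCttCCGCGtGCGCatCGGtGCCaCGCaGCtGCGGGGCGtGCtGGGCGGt

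Differences between arms were tested with limma on log2(FPKM + 1), a scale that understates changes of low genes, with sex as a covariate and Benjamini-Hochberg adjustment over the 12572 genes with a mean of at least 1 FPKM. A gene was called at an adjusted p under 0.05. Only 6 of the 9 genes reached that level: Acan, Tnc and Has3 did not, and their values come from the same fit without the filter, over all 15232 genes. The 3 comparisons share arms and so are not independent of one another.

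Between the untrained arms, labelled KO against labelled WT, none of the 6 tested genes was called, against 1.42% of all tested genes, and none of the other 3 without the filter (1.37% of all genes there). At an unadjusted p under 0.05 the sole member was Hapln1. The link protein Hapln1 was at 4.56 (lowest), 5.34 (median) and 6.79 FPKM (highest) in the arm labelled WT and at 3.66, 4.65 and 6.05 FPKM in the untrained arm labelled KO. Although 6 of 8 labelled KO libraries lay below the WT-labelled mean, the arms overlapped, and the difference of -0.18 (95% interval -0.31 to -0.05) had an adjusted p of 0.197 (limma). It was -0.10 without the 6 libraries of high striatal sum.

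The lecticans were close between the untrained arms. Bcan was at 46.8, 54.0 and 59.8 FPKM (lowest, median, highest) in the arm labelled WT and 43.9, 55.3 and 66.7 FPKM in the untrained arm labelled KO, a difference of 0.04 (interval -0.09 to 0.17). Ncan was at 38.7, 43.1 and 46.3 FPKM against 38.4, 43.0 and 49.3 FPKM, a difference of 0.03 (interval -0.07 to 0.12). For both lecticans the intervals left room for a change of at most 0.17 on the log2 scale. Vcan differed by -0.02 (interval -0.17 to 0.13), and Acan, at 0.502, 0.581 and 0.858 against 0.503, 0.761 and 1.08 FPKM, by 0.12 (interval -0.01 to 0.26, limma adjusted p = 0.471). For Acan, 7 of 8 labelled KO libraries lay above the WT-labelled mean, and the arms overlapped.

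Among the other net components, Tnr, which crosslinks lecticans, was at 21.5, 24.5 and 26.6 FPKM in the arm labelled WT and 19.2, 22.9 and 27.1 FPKM in the untrained arm labelled KO. Of the 8 labelled KO libraries, 7 lay below the WT-labelled mean, yet the difference of -0.08 (interval -0.18 to 0.01) had an adjusted p of 0.469 (limma). Tnc, a tenascin known from glial progenitors and injury, differed by 0.08 (interval -0.02 to 0.19) and Has3 by 0.06 (interval -0.07 to 0.18).

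Hapln4 showed how far 1 library reached. It was at 32.3, 37.3 and 48.7 FPKM in the arm labelled WT and at 18.3, 38.2 and 55.0 FPKM in the untrained arm labelled KO. The untrained labelled KO male 3 held the lowest value of all 24 libraries and labelled KO male 2 the highest. The difference was -0.06 with that arm whole (interval -0.41 to 0.29) and 0.10 without male 3. In that library the cortical marker sum given above was also the lowest of the arm. The septal sum and a striatal sum of 705 FPKM (90.6 to 397 FPKM in the other 7) were the highest. The part of these in the level of Hapln4 was not tested. In the same library Ncan, at 38.4 FPKM, and Hapln1, at 3.66 FPKM, were also the lowest of their arm, while Bcan, at 66.7 FPKM, Tnr, at 27.1 FPKM, and Vcan, at 2.75 FPKM, were the highest. The 9 genes thus went both ways there.

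**Figure D2:**
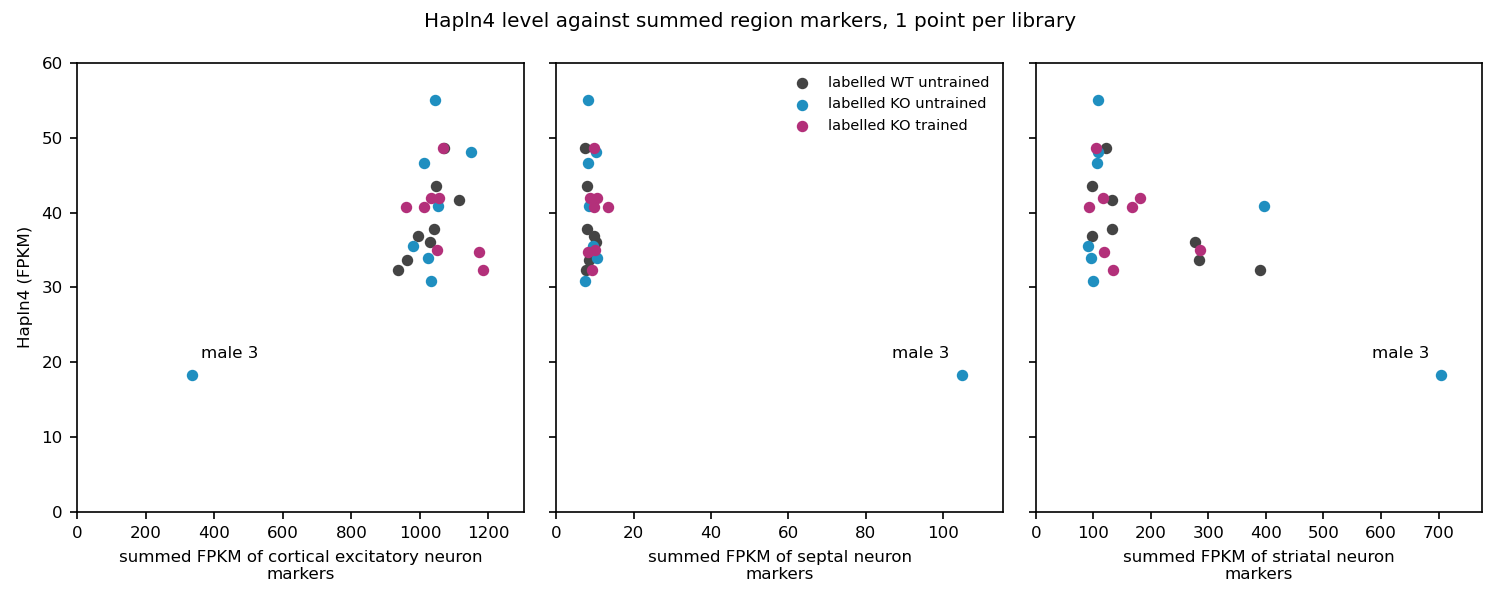
Hapln4 in FPKM (vertical) against the summed FPKM of 10 cortical excitatory, 6 septal and 10 striatal neuron markers (horizontal), 1 point per library, coloured by arm. The untrained labelled KO male 3 stands apart on all 3 sums, at 336, 105 and 705 FPKM, and has the lowest Hapln4.

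Training was compared within the libraries labelled KO. None of the 6 tested genes was called, against 5.67% of all tested genes, nor any of the other 3 without the filter (4.40%). The most abundant lecticans came closest, both at lower levels in trained animals. Bcan was at 43.9, 55.3 and 66.7 FPKM (lowest, median, highest) in untrained and 42.6, 48.6 and 54.7 FPKM in trained libraries. All 8 trained libraries lay below the untrained mean, though the ranges overlapped, and the difference was -0.19 (interval -0.34 to -0.05, limma adjusted p = 0.102). Without the untrained labelled KO female 2, which had the lowest untrained value, it was -0.23 and passed (limma adjusted p = 0.0479). The other 15 of 16 fits that left out 1 library did not call Bcan (limma adjusted p up to 0.166). Nor did any of 11 other settings (limma adjusted p 0.0535 to 0.518).

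Ncan was at 38.4, 43.0 and 49.3 FPKM in untrained and 36.9, 38.5 and 44.4 FPKM in trained libraries. In 4 trained libraries it was under every untrained one, and the difference of -0.14 (interval -0.25 to -0.03) had an adjusted p of 0.107 (limma). It passed where all libraries were scaled to an equal FPKM sum (limma adjusted p = 0.0401), which moved the median of all tested genes from 0.01 to -0.03. The other 10 of 11 settings (limma adjusted p up to 0.677) and all 16 fits that left out 1 library did not call Ncan. Vcan, the lectican of the looser matrix and of oligodendrocyte precursors, was at 1.58, 2.47 and 2.75 against 1.47, 2.04 and 2.74 FPKM, a difference of -0.14 (interval -0.32 to 0.03). The other members gave intervals that covered 0: 0.06 for Acan, -0.05 for Tnc, 0.05 for Hapln1, -0.01 for Has3 and -0.06 for Tnr, the last 0.07 without the trained labelled KO male 3. Hapln4 differed by 0.08 (interval -0.27 to 0.43) and by -0.06 without the untrained labelled KO male 3.

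The comparison of trained labelled KO with untrained labelled WT libraries, which differ in both labels, called 1 of the 6 genes against 24.5% of all tested genes, and none of the other 3 without the filter (21.4%). That gene was Bcan, at 46.8, 54.0 and 59.8 FPKM in the arm labelled WT and 42.6, 48.6 and 54.7 FPKM in the trained arm. Bcan fell by 0.15 on the log2 scale (interval -0.27 to -0.04, limma adjusted p = 0.0481), and 7 of 8 trained libraries lay below the WT-labelled mean. The call was marginal: it was lost in 12 of the 16 fits that left out 1 library (adjusted p 0.0258 to 0.0919) and in 5 of 11 other settings, among them a correction for GC content and length (adjusted p = 0.0557). Without the 6 libraries of high striatal sum Bcan was 0.17 lower and not called (adjusted p = 0.117).

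Ncan and Vcan stood near the same margin without a call. Ncan was 0.11 lower (interval -0.21 to -0.02, limma adjusted p = 0.0706), with 7 of 8 trained libraries under the WT-labelled mean, and it passed without the labelled WT male 1 (adjusted p = 0.0308) or the trained female 3 (0.0286). With animal number over 1000 as a covariate its sign turned (0.04). That fit rests on 1 library labelled WT numbered over 1000, male 1, which had the lowest Ncan of its arm (38.7 FPKM). Vcan was 0.17 lower (interval -0.33 to -0.01, limma adjusted p = 0.107), again in 7 of 8 libraries, and 0.13 lower without the trained labelled KO male 3, which had its lowest value. It differed by -0.06 after the correction for GC content and length (interval -0.18 to 0.06) and by -0.09 without the 6 libraries of high striatal sum. Without the trained male 4, which had the highest trained value, Vcan was 0.22 lower and passed (adjusted p = 0.0166). Acan stood in the other direction, at 0.502, 0.581 and 0.858 FPKM against 0.487, 0.830 and 1.57 FPKM, 0.19 higher (interval 0.02 to 0.35, limma adjusted p = 0.0936 over the 15232 genes). It was above the WT-labelled mean in 7 of 8 trained libraries, and 0.12 higher without the trained female 2 that had 1.57 FPKM. Without the trained male 2 it was 0.22 higher and passed (limma adjusted p = 0.0480). Of the 16 fits that left out 1 library, 14 did not call Ncan, 15 did not call Vcan and 15 did not call Acan. With animal number over 1000 as a covariate the sign of Acan turned (-0.03), in the same fit that rests on the labelled WT male 1. Hapln1 differed by -0.13, Tnr by -0.14, Hapln4 by 0.02, Tnc by 0.04 and Has3 by 0.05, each with an interval that covered 0.

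**Figure D3:**
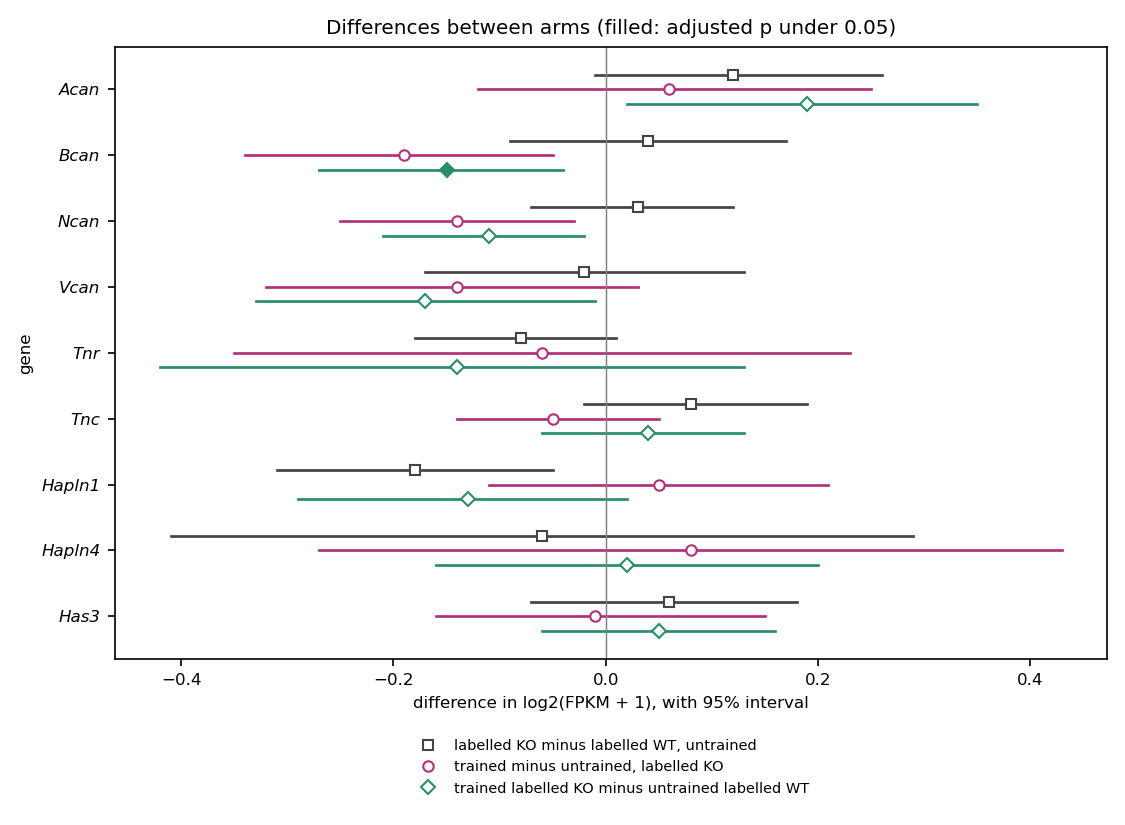
Differences in log2(FPKM + 1) of the 9 genes with 95% intervals (limma), for the untrained arms (squares), training (circles) and trained labelled KO against untrained labelled WT (diamonds); filled symbols passed an adjusted p under 0.05. Bcan in the third comparison, at -0.15, is the sole filled symbol.

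Parvalbumin interneurons, the cells that most nets surround, were followed through 12 markers. Gad1, Gad2 and Slc32a1 among them mark inhibitory neurons in general, so the sum is not one of parvalbumin cells alone. These summed to a median of 333 FPKM in the arm labelled WT, 370 FPKM in the untrained and 346 FPKM in the trained arm labelled KO, with ranges of 310 to 376, 324 to 609 and 294 to 389 FPKM. The 609 FPKM came from the untrained labelled KO male 3, where Pvalb was at 10.7 FPKM, and the other 7 libraries of that arm lay at 324 to 422 FPKM. None of the 12 was called by genotype label or by training, beside 1.42% and 5.67% of all tested genes. Between trained labelled KO and untrained labelled WT libraries 5 of 12 were called, beside 24.5% of all tested genes. Of these 1 was higher and 4 lower, with a median difference of -0.12 over the 12. Pvalb, the calcium-binding protein that names these cells, was higher (0.47, limma adjusted p = 0.00777), at 45.9 ± 9.76 FPKM in the arm labelled WT and 63.5 ± 9.47 FPKM in the trained arm (SD, n = 8 each), with 53.5 ± 23.2 FPKM in the untrained arm labelled KO. Lower were Kcnc1 (-0.16) and Kcnc2 (-0.18), potassium channels of fast spiking, the neuregulin receptor Erbb4 (-0.53) and Nxph1 (-0.26), a ligand of neurexins.

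Markers of glia also moved in the comparison that called Bcan. Sums of 8 oligodendrocyte precursor markers had medians of 75.3, 76.7 and 72.3 FPKM in the arm labelled WT, the untrained and the trained arm labelled KO, and those of 10 astrocyte markers 1036, 1093 and 1023 FPKM. No marker of these lists or of the parvalbumin list was at 0 in any library. The comparison of trained labelled KO with untrained labelled WT libraries called 24.5% of all tested genes. In it 4 of 8 precursor markers were called, with Pdgfra (-0.21), Cspg4 (-0.28) and Lhfpl3 (-0.27) lower and Gpr17 (0.36) higher. Of the astrocyte markers 4 of 10 were called, 2 in each direction, and of 8 microglial markers 5, 4 of them lower. Among 8 oligodendrocyte and 10 vascular and fibroblast markers, Opalin (-0.63) and Pdgfrb (-0.31) were lower and Ermn (0.34), Ly6c1 (0.53) and Col1a1 (0.26) higher. By training 5.67% of all tested genes were called, and in these lists only Sox9 (-0.32) and Pdgfrb (-0.28), lower, and Ly6c1 (0.49), higher. By genotype label 1.42% were called, and in these lists only Trem2 (-0.44), which was lower. Median sums in the same order of arms were 1222, 1170 and 1319 FPKM for 8 oligodendrocyte markers, 194, 184 and 181 FPKM for 8 microglial markers and 58.0, 56.8 and 61.7 FPKM for 10 vascular and fibroblast markers. The part of these cells in the lectican levels was not tested.

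The 2 sexes, compared in one fit of the 24 libraries that held arm fixed, differed in 2 of the 6 tested genes, against 28.6% of all tested genes, and in none of the other 3 without the filter (22.7%). Hapln1 was at 4.49, 5.49 and 6.79 FPKM (lowest, median, highest) in females and 3.66, 4.59 and 5.58 FPKM in males. Of 12 males, 11 lay below the female mean, and Hapln1 was lower in males by a log2 difference of -0.23 (interval -0.36 to -0.11, limma adjusted p = 0.00629). Within arms the difference was -0.29 among libraries labelled WT, -0.35 among untrained and -0.06 among trained libraries labelled KO. In the untrained arm labelled KO males were at 3.66 to 4.46 and females at 4.85 to 6.05 FPKM.

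Bcan differed the other way. It was at 43.9, 50.6 and 56.4 FPKM in females and 42.6, 55.9 and 66.7 FPKM in males, a log2 difference of 0.14 (interval 0.03 to 0.24, limma adjusted p = 0.0487), with 8 of 12 males above the female mean. The call was lost in 15 of 24 fits without 1 library, those without the untrained and without the trained labelled KO male 3 among them (adjusted p 0.0700 and 0.0820), and without the 6 libraries of high striatal sum (adjusted p = 0.184). By arm, Bcan differed by 0.13, 0.27 and 0.02.

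Differences between the sexes followed the GC content of the transcripts over all tested genes, with lower values in males at low GC content and higher values at high GC content. In the bin of genes with 39.7 to 41.5% GC, which holds Hapln1, the median difference between males and females was -0.15, and in the bin of 59.8 to 72.3% GC, which holds Bcan, it was 0.14. After a correction for GC content and length within each library, Hapln1 differed by -0.06 (limma adjusted p = 0.534) and Bcan by -0.02 (limma adjusted p = 0.860), and 742 genes in all were called in place of 3595. Ncan and Hapln4 lay below the medians of their bins by 0.15 and 0.13 and were not called before or after the correction.

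**Figure D4:**
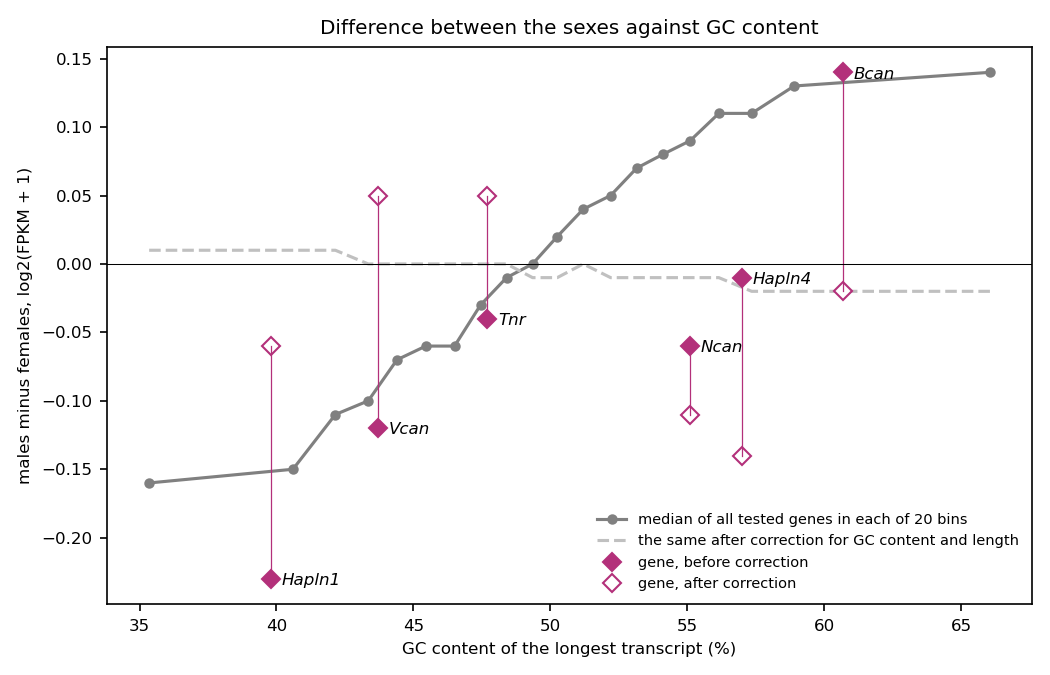
Difference between males and females in log2(FPKM + 1) against GC content of the longest transcript, for the 6 tested genes (diamonds) and as the median of all tested genes in each of 20 bins, drawn at the middle of the bin (grey). Hapln1 and Bcan lie near opposite ends of the grey line, and both are within 0.06 of 0 after correction (open diamonds).

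Whether training acted alike in both sexes was tested as an interaction, which called 0.00795% of all tested genes (1 gene), or 0.00657% without the filter, and no member. With all libraries Tnr had the estimate farthest from 0 among the 9. Trained females were at 23.5 to 26.8 FPKM against 19.2 to 22.6 FPKM in untrained females. Trained males were at 11.1, 19.1, 19.4 and 27.9 FPKM against 23.2 to 27.1 FPKM in untrained males. The interaction was -0.62 (unadjusted p = 0.0215, limma adjusted p = 0.242), and -0.39 without the trained labelled KO male 3. For Hapln4 it was -0.31 with all libraries and -0.64 without the untrained labelled KO male 3 (unadjusted p = 0.00174, limma adjusted p = 0.0695), past the -0.56 of Tnr in that fit. Without the 6 libraries of high striatal sum the interaction of Hapln4 was -0.74 (limma adjusted p = 0.125). Trained females had 40.7 to 48.6 FPKM of Hapln4 against 30.9 to 46.6 FPKM untrained, and trained males 32.3 to 41.9 FPKM against 40.9 to 55.0 FPKM in the 3 untrained males besides male 3. Has3, which makes hyaluronan, had the smallest unadjusted p of the 9 with all libraries (0.00390, limma adjusted p = 0.153): trained females were at 0.473 to 0.598 FPKM against 0.204 to 0.607 FPKM untrained, and trained males at 0.202 to 0.436 FPKM against 0.490 to 0.539 FPKM untrained. The male values of Has3 rest on 22 to 85 reads per library. The interaction of genotype label with sex called no gene at an adjusted p under 0.05 (limma), with 394 genes at an unadjusted p under 0.05.

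The rest of the pathway was followed in 5 lists of 77 genes, of which 55 were tested: other link proteins, synthases and proteoglycans, hyaluronan receptors and hyaluronidases, matrix proteases with their inhibitors, chondroitin sulfate synthesis, and receptors or ligands of the net. By genotype label, 1 of 55 was called, beside the 1.42% given above for all tested genes. That gene was Sema3a, a repulsive guidance cue held in nets by chondroitin sulfate, at 2.58 to 4.16 FPKM in the arm labelled WT and 1.72 to 2.44 FPKM in the untrained arm labelled KO. Sema3a fell by 0.46 (limma adjusted p = 0.00459).

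With training, 5 of 55 were called (9.09%, beside the 5.67% given above for all tested genes), 3 lower and 2 higher. With animal number over 1000 as a covariate none of the 5 was called, nor was any other tested gene. The covariate overlaps with training, since only 2 untrained libraries labelled KO were numbered over 1000. The median of the 55 differences was -0.04, against 0.01 over all tested genes. Nptx2, a neuronal pentraxin that gathers AMPA receptors at synapses onto parvalbumin cells, rose most, from 9.75 to 23.5 FPKM in untrained to 22.9 to 33.6 FPKM in trained libraries (0.66, limma adjusted p = 0.0104). Adamts1, a protease that cleaves lecticans, rose from 2.15 ± 0.366 to 3.11 ± 0.701 FPKM (0.37, limma adjusted p = 0.0261). Lower were Chpf2, a chondroitin polymerising factor, at 13.4 ± 1.42 against 10.1 ± 1.54 FPKM (-0.38, limma adjusted p = 0.00857), Ptprz1, a receptor phosphatase whose secreted form is the proteoglycan phosphacan, at 35.7 ± 6.30 against 26.8 ± 5.46 FPKM (-0.41, limma adjusted p = 0.0452), and Ptprs, a receptor for chondroitin sulfate, at 69.1 ± 3.71 against 60.5 ± 4.70 FPKM (-0.19, limma adjusted p = 0.0388; SD, n = 8 each). All 8 trained libraries lay on one side of the untrained mean for each of these 5. The trained labelled KO male 3 had the lowest Ptprz1, and without it the difference was -0.33 (adjusted p = 0.0639), 1 of 12 single libraries whose removal ended that call. The call of Ptprs was lost in 11 of 16 such fits and that of Adamts1 in 1, without the untrained labelled KO female 1 (adjusted p = 0.0624).

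Over all tested genes, 1.42%, 5.67% and 24.5% were called in the 3 comparisons of arms. None of the 5 hyaluronan-binding or hyaluronan-degrading genes tested was called in any of these comparisons. The most abundant of them, Cemip, which depolymerises hyaluronan, was at 4.12 ± 0.537, 4.14 ± 0.948 and 4.80 ± 0.637 FPKM (SD, n = 8 each) in the arm labelled WT, the untrained and the trained arm labelled KO. The hyaluronidase Hyal2 was at 3.98 ± 0.491, 4.14 ± 0.894 and 3.71 ± 0.454 FPKM.

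Between trained labelled KO and untrained labelled WT libraries, 17 of 55 were called, 13 lower and 4 higher, with a median of -0.05 over the 55. The share of these lists called was 30.9%, beside the 24.5% given above for all tested genes. In chondroitin sulfate synthesis, 4 of 18 were lower (Chpf2 -0.48, B3galt6 -0.28, Chst15 -0.21 and Chsy3 -0.19) and Dse, an epimerase that turns chondroitin into dermatan sulfate, was higher by 0.20. Of 13 receptors and ligands, Ptprs, Ptprf, Ptprd, Cntn1 and Sema3a fell by 0.24, 0.22, 0.18, 0.19 and 0.30, and Nptx2 and Nrp1, a semaphorin receptor, rose by 0.56 and 0.36. Cntn1, a contactin that binds tenascin-R, was at 83.3 to 93.3 FPKM in the arm labelled WT and 65.5 to 81.5 FPKM in the trained arm. Nptx2 was at 17.1 to 20.2 and 22.9 to 33.6 FPKM in the same order. Of 5 proteoglycans and related genes, Ptprz1, Cspg4 and Cspg5 fell by 0.32, 0.28 and 0.14, and of 14 proteases and inhibitors, Mmp16 fell by 0.39 and Plat, tissue plasminogen activator, rose by 0.23. Leaving out 1 library ended the call of Cspg5 in 9 of 16 fits, of Dse in 4 and of Ptprf in 3, and of none of the other 14. With animal number over 1000 as a covariate the calls of these genes were lost, as were nearly all calls over all tested genes. That fit rests on 1 library labelled WT, male 1, and number and training cannot be told apart in females.

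**Figure D5:**
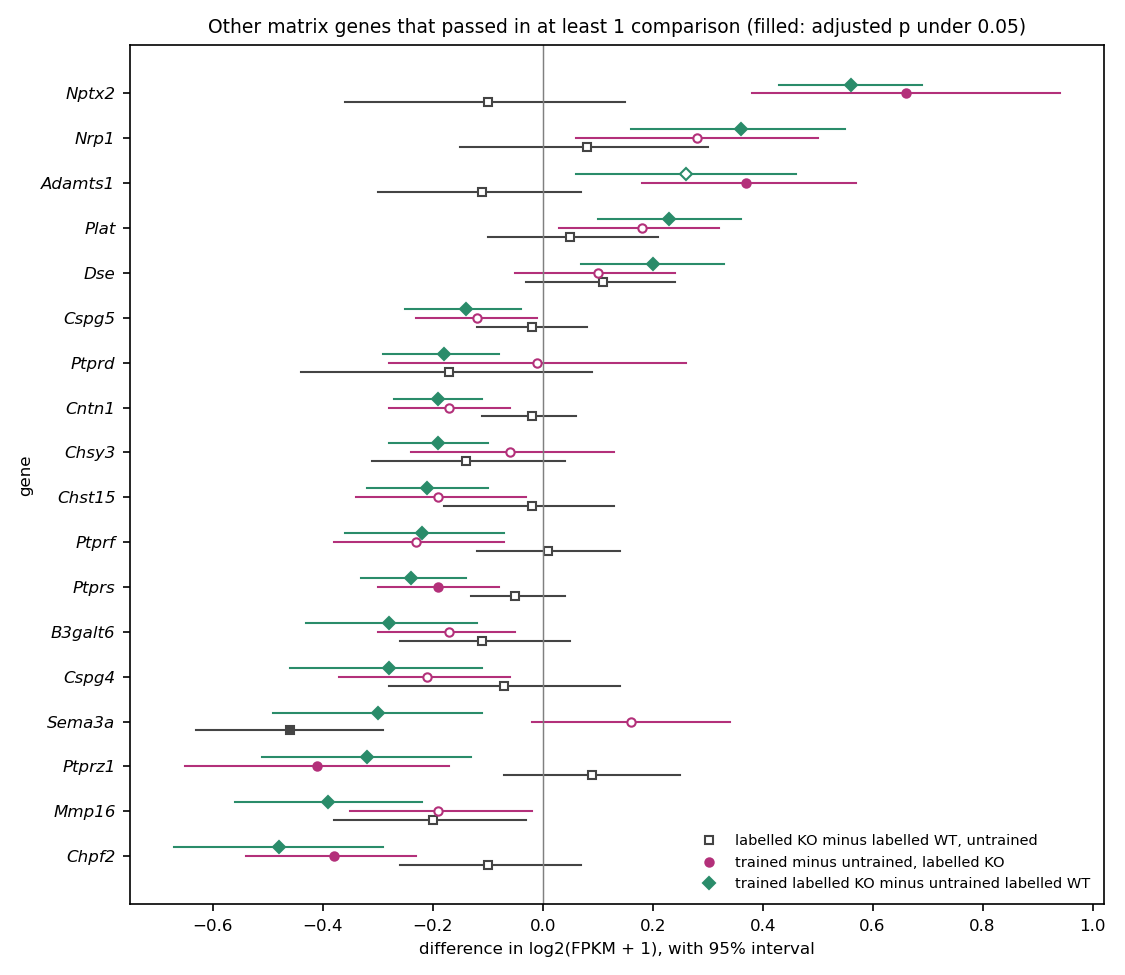
Differences in log2(FPKM + 1) with 95% intervals (limma) of the 18 other matrix genes that passed in at least 1 comparison, symbols as for the 9 genes and filled where the adjusted p was under 0.05. Nptx2 lies farthest to the right, at 0.66 and 0.56, and Chpf2 at -0.38 and -0.48 is among the lowest.

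The genes whose levels ran most closely with each member, after the means of arm and sex were taken out, were ranked over the 24 libraries by Pearson r on the log2 scale. Hapln4 ran with Stac2 (r = 0.98), Hr (0.97) and Zmat4 (0.97). Without the untrained labelled KO male 3 its nearest were Stac2 (0.94), Vamp1 (0.93) and Kcng4 (0.92). Tnr ran with Glg1 (0.95), Tmem178b (0.93) and Xkr4 (0.93), whose Spearman rho were 0.68, 0.60 and 0.80. Acan was nearest to Itga7 (0.81), Bcan to Zfp395 (0.84), Ncan to Sema4a (0.86), Vcan to Pou2f1 (0.86), Tnc to Eprs (0.80), Hapln1 to Manea (0.77) and Has3 to Aldh6a1 (0.83). These are the largest of many correlations and share depth and composition of the libraries.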

How the data were processed

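The deposited table holds FPKM values of 15232 genes in 24 libraries, computed by the authors. Columns were assigned through the animal numbers in the labels, and 0 were left unused. FastQC 0.11.7, Trimmomatic 0.38, STAR 2.5.3a, featureCounts (Subread 1.6.3) and mm10 are named per the submitters' processing notes. The program that made the FPKM, the annotation and the gene filter are not given in the sources used here. Per the labels' protocols, the library kit was stranded.

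Within a gene, FPKM values step by the worth of 1 read, so reads were recovered for 15223 genes, with 99.9921% of values whole within 0.01 read; they cover counting error only. Values of log2(FPKM + 1) were fitted in R 4.3.3 by limma 3.58.1 (lmFit, eBayes with trend) on the arms compared, over the 12572 genes with a mean of at least 1 FPKM, p-values being adjusted by Benjamini-Hochberg and called under 0.05. Both steps were tested on simulated data. GC content came from GENCODE M21 transcripts for 96.4% of tested genes and all 9 members, and the correction used 20 bins each of GC content and length.

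The 9 genes, the matrix and marker lists and the tests were chosen with earlier results of these data known. Also named are list genes that passed in a comparison of arms (up to 20 each), the 2 most abundant of a list with none, and of the 3 genes most like each member the first or all. Alternatives were no filter, a mean of at least 5 FPKM, a pseudocount of 0.1, 2 other scalings, 1 fit of all libraries, leaving sex out, a replicate block, animal number over 1000 as a covariate, GC and length correction, limma-voom on recovered reads and each library left out. List counts without the untrained and without the trained labelled KO male 3, and fits without the 6 libraries whose striatal markers sum to over 200 FPKM, were added after seeing the data.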

Additional observations from a re-analysis of the deposited data

Results flagged for a closer look

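Of the 27 sets of 8 libraries (9 genes in 3 arms), 2 held a value that stood apart from its own arm by Dixon's criterion, where chance alone gives about 1 in 20, or 1.35 of 27. Acan was at 1.57 FPKM in the trained labelled KO female 2, above a next highest value of 0.930 FPKM in that arm. Vcan was at 1.58 FPKM in the untrained labelled KO male 4, below a next lowest value of 2.20 FPKM.

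The difference of Has3 with training ran in opposite directions in the sexes: every trained female lay above the mean of the untrained females labelled KO, and every trained male below the mean of the untrained males. The interaction of training with sex was -0.39 on the log2(FPKM + 1) scale over 16 libraries, with an unadjusted p of 0.00390 and an adjusted p of 0.153 (limma), so it did not pass. It lay between -0.47 and -0.33 with 1 library left out, with adjusted p of 0.0664 to 0.292.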

How the results depend on the processing

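Of 349 changes of members recomputed under other settings, 318 kept their direction and side of the threshold, 11 lost and 3 gained a call and 17 changed sign. With 1 library left out, the counts were 664, 601, 27, 6 and 30. The causes were not tested. Without the 6 libraries of high striatal sum, added after seeing the data and outside these counts, 104, 1185 and 3 genes were called by genotype label, in the third comparison of arms and for training by sex, with 0 members in the third and 1 by sex. Bcan lost both calls (-0.17 and 0.12). Signs changed by genotype label for Vcan (3.58e-04) and Hapln4 (0.05), by training for Tnr (0.03), Hapln1 (-0.0040), Hapln4 (-0.04) and Has3 (0.03), and for Hapln4 in the third comparison (-0.08) and by sex (0.08). Acan, Tnc and Has3 rested on only 19 to 213 reads per library, and the part of depth in their results was not tested.

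By genotype label, genes called numbered 98 without the sex covariate and 115 to 340 with 1 library left out. By training, they numbered 1238 with all 24 libraries in one fit, 422 without the sex covariate and 330 to 945 with 1 left out. With animal number over 1000 as a covariate limma called 0 for training (1306 at an unadjusted p under 0.05) and 22 in the third comparison of arms, which ranged from 2363 to 3418 with 1 left out. By sex, 742 were called after GC and length correction and 2986 to 4233 with 1 left out. For training by sex, the count was 13 with a pseudocount of 0.1, 22 at a mean of at least 5 FPKM, 15 with median-ratio and 4 with equal-sum scaling, 243 in one fit, 2 with animal number, 5 after GC correction, 3 with limma-voom and 0 to 194 with 1 left out.

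Members called by training came to 1 with equal-sum scaling and 0 to 1 with 1 library left out. In the third comparison they came to 2 with equal-sum scaling, 0 without the filter, in one fit, without sex, with animal number or after GC correction, and 0 to 2 with 1 left out. By sex they came to 1 without the filter, with median-ratio scaling, animal number or limma-voom, 0 after GC correction and 1 to 3 with 1 left out.

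With animal number as a covariate, training gave -0.14 for Acan, -0.40 for Hapln4 and -0.02 for Cemip. The third comparison gave -0.03 for Acan, 0.04 for Ncan, 0.01 for Hapln1, -0.36 for Hapln4 and -0.15 for Has3, and sex 0.0043 for Tnc. For the third comparison this fit rests on the labelled WT male 1, the only library of its arm numbered over 1000. After GC correction, training gave 0.02 for Tnr and 0.0016 for Has3, the third comparison -0.0043 for Hapln4, and sex -0.02 for Bcan and 0.05 for Vcan and for Tnr. Equal-sum scaling gave -0.02 for Hapln4 in the third comparison.

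With 1 library left out, the ranges that crossed 0 were, by genotype label, -0.06 to 0.02 for Vcan, -0.14 to 0.10 for Hapln4, -0.06 to 0.08 for Cemip and -0.02 to 0.07 for Hyal2. By training they were -0.0034 to 0.11 for Acan, -0.12 to 0.07 for Tnr, -0.06 to 0.18 for Hapln4 and -0.05 to 0.03 for Has3. In the third comparison Hapln4 ranged from -0.02 to 0.08, and by sex Tnr from -0.08 to 0.05, Tnc from -0.02 to 0.01 and Hapln4 from -0.07 to 0.08.

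The replicate numbers in the titles name different animals, and same-numbered libraries did not deviate together (mean r of 0.0247, -0.0701 and -0.1017 over 8, 7 and 7 pairs; 1, 0 and 0 libraries correlated best with their own number). With a replicate block, 114, 29 and 1614 genes were called in the 3 comparisons of arms and 0 for training by sex, where limma called 1388 at an unadjusted p under 0.05. The block gave 0.01 for Has3 by training and -0.05 for Hapln4 in the third comparison. It left 1, 0 and 12 of the 1, 5 and 17 matrix genes called.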
